A study of Mus musculus with 4 samples.

Results

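Immediate early genes and heat shock genes were described across 4 preparations of BALB/c mouse mast cells. The list held 38 genes, chosen by name from the AP-1, Egr, Nr4a, Klf, Dusp and Ier families, from feedback regulators and from heat shock proteins. The choice was made with earlier results of these data known, so the shares below describe this list and are no test. A gene was kept if the array had a probe set annotated to its symbol alone, which left 37 of the 38, out of 22180 genes on the array. Dnaja1 had no such probe set, since its only one also carries the microRNA gene Mir207.

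Each preparation was measured on 1 Affymetrix whole-transcript array, from total RNA of which 2 ng were amplified. Bone marrow-derived mast cells (BMMCs) had been grown from BALB/c marrow in interleukin-3 and stem cell factor (SCF), each at 10 ng/ml, over 3 to 4 weeks. They were then kept for 6 days with TGF-beta1 at 5 ng/ml (TGF-beta1 BMMCs), for 6 days on Chinese hamster ovary (CHO) cells that express the mouse Notch ligand Dll1 (Dll1 BMMCs), or for 6 days in normal medium (control BMMCs). The Dll1 BMMCs were afterwards taken by magnetic beads against c-Kit. Intestinal mast cells came from naive BALB/c mice, where the small intestinal lamina propria was their source, and were sorted by flow cytometry on FceRI and c-Kit. The labels name no sort for the TGF-beta1 and control cultures and do not say how many animals or cultures an array holds. Source, treatment and isolation therefore cannot be told apart as the origin of any difference below.

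Immediate early genes are switched on within minutes by signals that need no new protein, through factors such as SRF and CREB that already sit in the nucleus. Many of their products are transcription factors, and others, among them Dusp phosphatases, Zfp36 and the inhibitors of NF-kB, shut the response down again. Heat shock genes are switched on by HSF1 when proteins unfold, and their products are chaperones. In mast cells crosslinking of the IgE receptor is a known trigger of the early genes, and transcripts of both kinds are known to accumulate while cells are being taken out of a tissue.

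The values are log2 probe set levels with no replicate, so no test between groups was possible and each comparison sets 1 array against 1 array. A gene was above background when it exceeded the 95th percentile of 1438 chemoreceptor probe sets (smell, pheromone and taste receptors, which mast cells should lack), a limit between 5.11 and 5.21 on the 4 arrays. A gene was called higher or lower when it was above that limit on at least 1 array of a pair and differed at least 2-fold, with lower values raised to the limit. Folds against an array under the limit are bounds, written as "at least". As a gauge of technical spread, the log2 differences of separate probe sets of the same gene varied with a standard deviation (SD) between 0.24 (TGF-beta1 minus control) and 0.48 (intestinal minus control). That SD contains no variation between cultures or mice.

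The mast cell genes Kit (12.22 in TGF-beta1, 12.54 in Dll1, 11.75 in intestinal and 12.65 in control cells) and Cpa3 (12.92, 13.11, 12.76 and 13.06 in the same order) were high on every array. Of 10 mast cell markers, 2 were higher and 2 lower in intestinal cells than in control BMMCs. The proteases Mcpt1 (12.72, against 4.82 in control, under the limit) and Mcpt2 (12.33, against 5.75) were higher, and the proteases Cma1 (7.16, against 12.12) and Tpsb2 (6.21, against 11.55) were lower. Markers of other cells were also present. On the intestinal array, 9 of 9 T and innate lymphoid markers, 12 of 15 epithelial markers and 7 of 9 macrophage and dendritic cell markers were above background, against 3, 5 and 3 on the control array. The log2 of their summed unlogged levels was 11.37, 11.06 and 11.54 in intestinal cells, against 8.27, 9.01 and 8.44 in control BMMCs, while the epithelial markers Epcam, Krt19 and Vil1 stayed under the limit in intestinal cells. On the Dll1 array the neutrophil markers (8 of 8 above the limit) summed to 10.71 and the eosinophil markers (4 of 6, without Siglecf and Il5ra) to 12.00, against 8.30 and 7.76 on the control array. T and innate lymphoid markers (4 of 9 above the limit) summed to 9.52 on the Dll1 array, against 8.27 on the control array. Of these 9, 3 were called higher in Dll1 BMMCs. On the TGF-beta1 array the T and innate lymphoid, epithelial, macrophage and dendritic, neutrophil and eosinophil markers summed to 8.06, 9.31, 8.54, 8.19 and 7.45, close to the control values. B and plasma cell markers summed to 8.21 in intestinal cells, against 7.21 in control BMMCs. The part of these cells in the results below was not tested, and in bulk RNA more cells of a type and more RNA per cell cannot be told apart.

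Intestinal mast cells had the highest level of 34 of the 37 genes, and in 30 genes the Dll1 BMMCs came next. The median level over the list was 5.85 in TGF-beta1 BMMCs, 7.92 in Dll1 BMMCs, 9.68 in intestinal mast cells and 5.95 in control BMMCs. In TGF-beta1 BMMCs 31 of the genes were above background, in Dll1 BMMCs 35, in intestinal mast cells all 37 and in control BMMCs 33. Hspa1a and Hspa1b were above background in intestinal mast cells and on no other array.

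**Figure D1:**
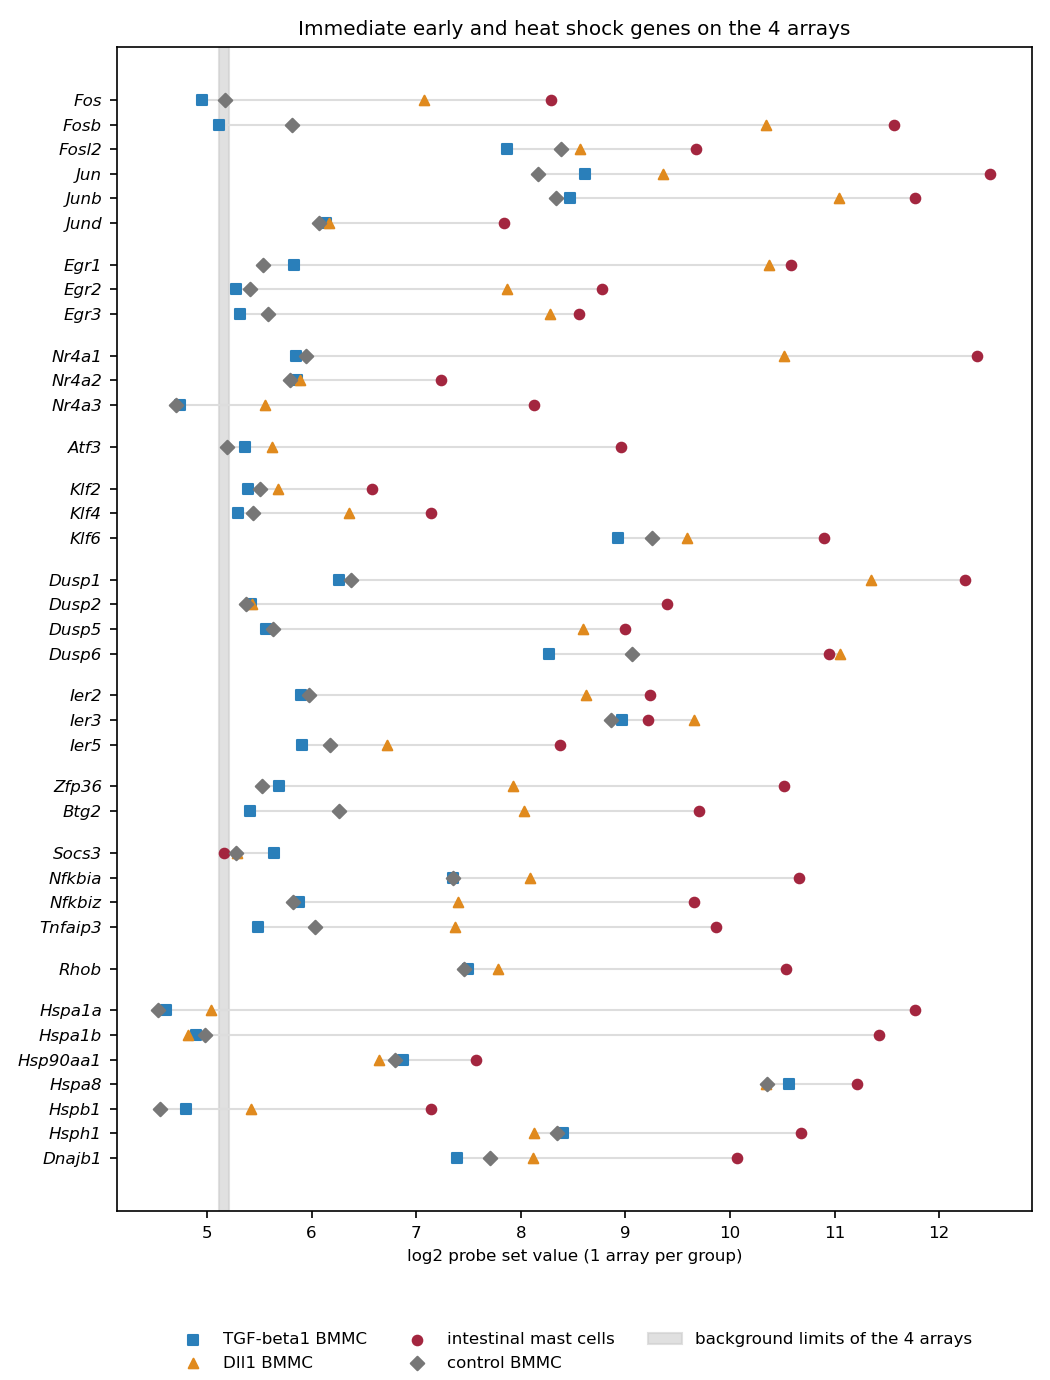
Log2 probe set level of each of the 37 genes (x axis) on the 4 arrays, with 1 symbol per array, genes grouped by role on the y axis, and the background limits shaded. Intestinal mast cells lie furthest right for 34 genes, and TGF-beta1 and control BMMCs lie less than 1 log2 unit apart for all 37.

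Relative to control BMMCs, 33 of the 37 genes were at least 2-fold higher in intestinal mast cells and none was lower, where 4.47% of 12716 genes tested were higher. The median log2 difference over the list was 3.25, against -0.00 over all genes tested (6.74% lower), and 26 of the genes passed 4-fold, which 1.26% of all tested genes did. With values under background raised to the limit, 7 of the 20 highest differences were in the list, and of the highest 100 there were 22. In Dll1 BMMCs relative to control BMMCs, 16 of the 37 were at least 2-fold higher and none lower (1.64% of 12756 genes higher and 1.78% lower), with a list median of 0.85 against 0.00 over all genes tested. Of the 20 highest differences in that comparison 5 were in the list, and 10 of its genes passed 4-fold (0.392% of all). With array medians subtracted, the split over all genes was 175 higher and 316 lower in place of 209 and 227, and the listed genes stayed at 16 and 0. In TGF-beta1 BMMCs relative to control BMMCs, none of the 37 was higher or lower, where 0.508% of 12019 genes were higher and 0.89% lower, and 0.0998% passed 4-fold. The list median there was -0.00, and the differences of single genes ran between -0.85 (Btg2) and 0.45 (Jun).

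The 16 genes higher in Dll1 BMMCs were all among the 33 higher in intestinal mast cells, in comparisons that share the control array. Comparisons without a shared array can be set side by side. Relative to TGF-beta1 BMMCs, 16 genes of the list were higher in Dll1 BMMCs and none lower (2.19% and 1.9% of all tested genes), 12 of them past 4-fold (0.514%), and all 16 were also higher in intestinal mast cells relative to control BMMCs, which is 100% of the first group and 48.5% of the second. Over all genes, 96 were higher in both of those comparisons, 34.7% of the 277 genes in the first and 16.9% of the 569 in the second. These shares cannot be weighed against those of the list. In the second comparison 89.2% of the measured list was higher, against 4.47% of all genes tested. Most of the overlap within the list was therefore fixed by that share, with or without a shared array. Relative to TGF-beta1 BMMCs, 33 of the list were higher and none lower in intestinal mast cells (4.06% and 4.56% of all tested genes), 26 of them past 4-fold (1.16%).

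**Figure D2:**
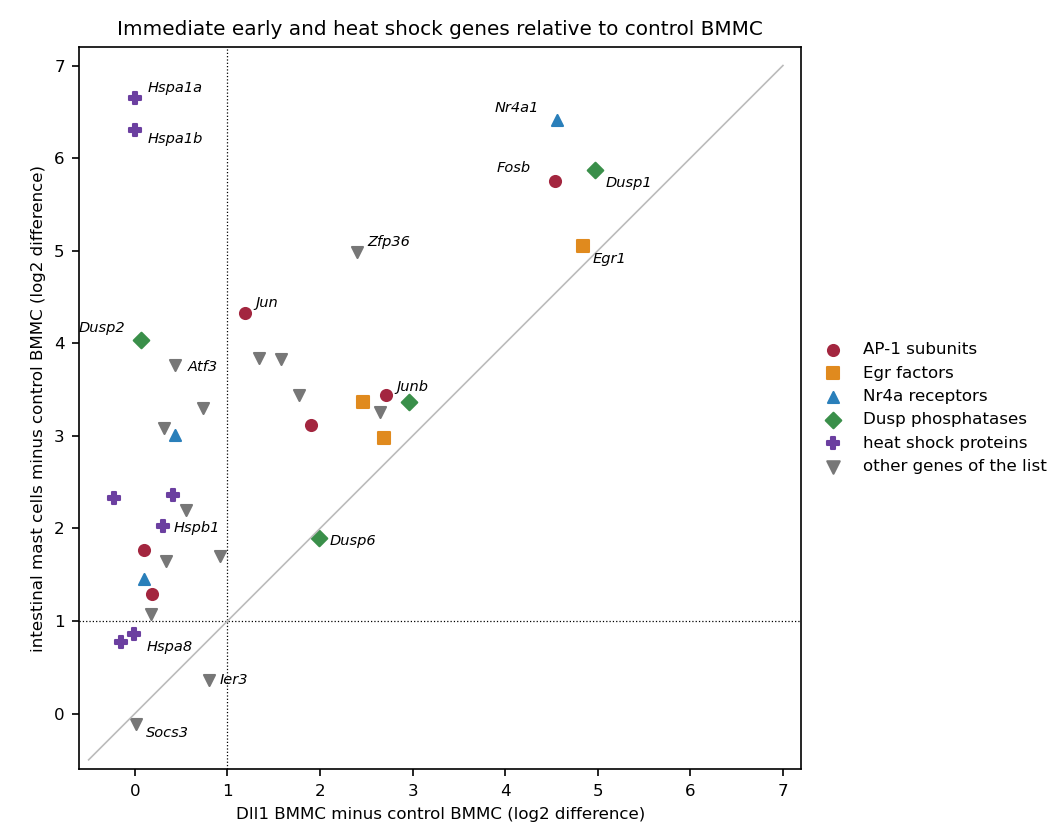
Log2 difference from control BMMCs in Dll1 BMMCs (x axis) and in intestinal mast cells (y axis), 1 symbol per gene, with values under background raised to the limit, dotted lines at 2-fold and a grey line of equal differences. Both axes use the same control array. Heat shock genes lie left of the vertical dotted line, Egr1 and Egr3 lie near the line of equal differences, and no gene lies right of the vertical line and below the horizontal one.

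AP-1 is a dimer of leucine zipper proteins of the Fos and Jun groups. All 6 AP-1 genes in the list were at least 2-fold higher in intestinal mast cells than in control BMMCs. Fosb had a level of 5.12 in TGF-beta1 BMMCs (under the limit), 10.35 in Dll1 BMMCs and 11.57 in intestinal mast cells, against 5.81 in control BMMCs. It was 23.2-fold higher in Dll1 BMMCs and 54.1-fold higher in intestinal cells than in control BMMCs. Fos had the same order of groups, with 4.95, 7.07 and 8.29 in TGF-beta1, Dll1 and intestinal cells, against 5.17 in control cells. Junb, which can restrain Jun, read 8.47 in TGF-beta1, 11.05 in Dll1 and 11.77 in intestinal cells, against 8.33 in control cells. Its level in Dll1 BMMCs was 6.56-fold above control, and intestinal cells exceeded Dll1 BMMCs by only 0.72.

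Jun itself differed more between the upper pair of arrays. It read 8.61 in TGF-beta1, 9.36 in Dll1 and 12.49 in intestinal cells, against 8.17 in control cells, so that it was 2.28-fold above control in Dll1 BMMCs and 20.03-fold above it in intestinal cells. Jund (6.14, 6.17 and 7.84, against 6.07 in control) and Fosl2 (7.87, 8.57 and 9.68, against 8.39 in control) were called higher in intestinal cells, 3.41-fold and 2.45-fold, and not in Dll1 BMMCs. The second probe set of Jund, which was not used, differed by less. It read 5.56, 5.80 and 6.69 in TGF-beta1, Dll1 and intestinal cells, against 6.00 in control cells. Its log2 difference between intestinal and control cells was 0.68, under 2-fold.

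The sequence before the start site of Fos is shown because the element that CREB binds, the CRE, is a textbook input to this gene. All sequences here are RefSeq, build GRCm38.p6, 5′ to 3′ on the strand of the gene, and end at the base before the start site. Capitals mark the CRE core TGACGT on either strand. The Fos stretch is chr12:85473740-85473889, plus strand.
Fos: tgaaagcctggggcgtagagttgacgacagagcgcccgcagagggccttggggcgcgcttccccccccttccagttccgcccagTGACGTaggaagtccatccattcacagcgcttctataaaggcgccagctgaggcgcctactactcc

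The Egr genes encode zinc finger factors, and all 3 in the list were higher in Dll1 BMMCs and in intestinal mast cells, less than 2-fold apart. Egr1 read 5.84 in TGF-beta1, 10.37 in Dll1 and 10.59 in intestinal cells, against 5.53 in control cells. It was 28.6-fold above control in Dll1 BMMCs and 33.1-fold in intestinal cells. Egr2 read 5.28, 7.87 and 8.77, against 5.41 in control cells, and Egr3 read 5.32, 8.28 and 8.55, against 5.58 in control cells. None of the 3 differed 2-fold between intestinal cells and Dll1 BMMCs, with differences of 0.21, 0.90 and 0.28. Egr4, outside the list and named after its values were seen, was called in no comparison. It read 4.96 in TGF-beta1, 5.18 in Dll1 and 5.55 in intestinal cells, against 4.92 in control cells.

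The Nr4a genes encode orphan nuclear receptors that are controlled mainly through their own transcription, and the 3 of them differed from each other. Nr4a1 (Nur77) read 5.85 in TGF-beta1, 10.51 in Dll1 and 12.36 in intestinal cells, against 5.95 in control cells. That was 23.7-fold above control in Dll1 BMMCs and 85.0-fold in intestinal cells. Nr4a2 read 5.86 in TGF-beta1, 5.89 in Dll1 and 7.24 in intestinal cells, against 5.79 in control cells, so that only intestinal cells stood out. Nr4a3 read 4.74 in TGF-beta1, 5.55 in Dll1 and 8.13 in intestinal cells, against 4.70 in control cells, with TGF-beta1 and control BMMCs under the limit. It was at least 8.05-fold above control in intestinal cells.

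Atf3, a stress-induced factor of the ATF/CREB family, and the 3 listed Klf genes were called higher in intestinal cells and not in Dll1 BMMCs. Atf3 read 5.37 in TGF-beta1, 5.62 in Dll1 and 8.96 in intestinal cells, against 5.19 in control cells, a 13.6-fold difference between intestinal and control cells. Klf6 read 8.93, 9.58 and 10.90, against 9.25 in control cells. Klf4, at 5.30, 6.36 and 7.14 against 5.44 in control cells, was 1.89-fold above control in Dll1 BMMCs and 3.26-fold in intestinal cells. Klf2 (5.39, 5.68 and 6.58, against 5.51 in control) passed 2-fold in intestinal cells by a narrow margin, at 2.10-fold, and fell short of it with a stricter background limit (0.64 on the log2 scale).

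The Dusp genes encode phosphatases that inactivate MAP kinases. Dusp1, which acts on p38, JNK and ERK in the nucleus, read 6.26 in TGF-beta1, 11.35 in Dll1 and 12.25 in intestinal cells, against 6.38 in control cells. It was 31.4-fold above control in Dll1 BMMCs and 58.5-fold in intestinal cells. Dusp5, a nuclear ERK phosphatase, read 5.56, 8.59 and 9.0, against 5.63 in control cells. Dusp6, its cytoplasmic counterpart for ERK, read 8.27 in TGF-beta1, 11.05 in Dll1 and 10.95 in intestinal cells, against 9.06 in control cells, with the upper arrays 0.10 apart. A second Dusp6 probe set gave the same order of groups apart from the upper pair near background, at 4.93 in TGF-beta1, 5.82 in Dll1, 5.87 in intestinal and 5.22 in control cells.

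Dusp2, a nuclear phosphatase of blood cells, departed from the other 3 listed genes of its family. It read 5.42 in TGF-beta1, 5.43 in Dll1 and 9.40 in intestinal cells, against 5.37 in control cells. Its level in intestinal cells was 15.6-fold that in Dll1 BMMCs. Outside the list, Dusp10 and Dusp16 were also called higher than control in intestinal cells and not in Dll1 BMMCs. Dusp10 read 6.70 in Dll1 and 8.49 in intestinal cells, against 6.18 in control cells. Dusp16 read 6.95 and 7.90, against 6.25 in control cells. Dusp4, Dusp8 and Dusp14 were not called against control. These Dusp genes outside the list were named after their values were seen.

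The stretches before Dusp1, Dusp5 and Zfp36 are shown because these genes were higher on both upper arrays and hold CRE cores or CArG boxes, the element that SRF binds. Capitals mark CArG boxes in Dusp5 and Zfp36 and the CRE core in Dusp1 and Dusp5. The full palindrome TGACGTCA of Dusp1 consists of overlapping cores on both strands, and Dusp5 has a core on the opposite strand, shortly after its adjoining CArG boxes. The stretches are chr17:26508473-26508622, minus strand (Dusp1), chr19:53528995-53529144, plus strand (Dusp5) and chr7:28379229-28379378, minus strand (Zfp36).
Dusp1: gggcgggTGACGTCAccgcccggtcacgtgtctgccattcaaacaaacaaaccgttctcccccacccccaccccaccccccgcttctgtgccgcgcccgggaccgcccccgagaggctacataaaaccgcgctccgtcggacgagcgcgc
Dusp5: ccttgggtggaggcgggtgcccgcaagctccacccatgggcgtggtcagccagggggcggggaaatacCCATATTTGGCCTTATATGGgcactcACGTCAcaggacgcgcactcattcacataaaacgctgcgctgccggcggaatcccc
Zfp36: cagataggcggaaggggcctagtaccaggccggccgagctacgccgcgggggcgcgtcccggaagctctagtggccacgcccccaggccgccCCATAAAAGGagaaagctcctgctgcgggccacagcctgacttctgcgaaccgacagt

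Of the Ier genes, Ier2 was higher on both upper arrays, with 5.90 in TGF-beta1, 8.62 in Dll1 and 9.23 in intestinal cells, against 5.98 in control cells. Ier5, a regulator of HSF1, read 5.91, 6.72 and 8.37, against 6.18 in control cells, and was called higher in intestinal cells alone of the 3 groups set against control. Ier3 did not reach 2-fold in any comparison, with its highest level in Dll1 BMMCs (9.66), 8.97 in TGF-beta1, 9.22 in intestinal and 8.86 in control cells.

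Zfp36 (tristetraprolin) binds AU-rich elements and speeds the decay of mRNAs such as that of Tnf. It read 5.69 in TGF-beta1, 7.92 in Dll1 and 10.51 in intestinal cells, against 5.53 in control cells, 5.26-fold and 31.7-fold above control on the upper arrays. Btg2, an antiproliferative gene, was lowest in TGF-beta1 BMMCs (5.41) and read 8.04 in Dll1, 9.70 in intestinal and 6.26 in control cells.

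The listed genes of NF-kB regulation, Nfkbia, Tnfaip3 and Nfkbiz, were highest in intestinal cells. Nfkbia (I-kappa-B alpha) read 7.35 in TGF-beta1, 8.09 in Dll1 and 10.66 in intestinal cells, against 7.36 in control cells. Tnfaip3 (A20, a ubiquitin-editing enzyme) read 5.49, 7.37 and 9.87, against 6.03 in control cells, and Nfkbiz, a nuclear relative of Nfkbia, read 5.88, 7.40 and 9.65, against 5.82 in control cells. In intestinal cells these 3 exceeded Dll1 BMMCs 5.94-fold, 5.65-fold and 4.77-fold. Of relatives of Nfkbia outside the list, Nfkbie and Bcl3 were not called between intestinal cells and control or Dll1 BMMCs. Nfkbie read 6.92, 7.22 and 7.58 in TGF-beta1, Dll1 and intestinal cells, against 7.44 in control cells, and Bcl3 was highest in TGF-beta1 BMMCs. Nfkbid, another relative, read 5.89, 6.34 and 7.84 in TGF-beta1, Dll1 and intestinal cells, against 5.85 in control cells. It was called higher in intestinal cells than in control BMMCs (3.95-fold) and Dll1 BMMCs (2.82-fold). Nfkbie and Nfkbid were chosen after their values were seen. Rhob, a small GTPase with a short-lived mRNA, read 7.49, 7.78 and 10.54, against 7.46 in control cells. Socs3, the inhibitor of JAK and STAT signalling, stayed near background on all arrays, at 5.64, 5.29 and 5.16 against 5.28 in control cells, and its second probe set lay between 5.15 and 5.40.

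Heat shock genes of the list separated the intestinal array from the Dll1 array, as did many of the other listed genes. Set against Dll1 BMMCs directly, 5 of 7 heat shock genes were higher in intestinal cells, and 18 of 30 immediate early and feedback genes. Of the 7 measured, 5 were at least 2-fold higher in intestinal cells than in control BMMCs and none in Dll1 BMMCs. Their median difference from control was 2.36 in intestinal cells and -0.01 in Dll1 BMMCs, whereas the 30 immediate early and feedback genes had medians of 3.33 and 1.26. Hspa1a, the inducible Hsp70, read 4.61 in TGF-beta1, 5.04 in Dll1 and 11.77 in intestinal cells, against 4.53 in control cells, with all 3 BMMC preparations under the limit. That was at least 100.3-fold above control BMMCs and at least 99.4-fold above Dll1 BMMCs. Hspa1b followed with 4.90, 4.82 and 11.42 in TGF-beta1, Dll1 and intestinal cells, against 4.98 in control cells.

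The Hspa1a and Hspa1b genes are near-identical copies, so their separate levels are uncertain. The 250 bases before their start sites were identical at 247 positions. A probe set annotated to both genes read 5.33 in intestinal cells and between 4.40 and 4.57 in the 3 BMMC preparations.

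Hsph1 (Hsp110, which recharges Hsp70 with nucleotide) read 8.40 in TGF-beta1, 8.12 in Dll1 and 10.68 in intestinal cells, against 8.35 in control cells, 5.03-fold above control in intestinal cells. Dnajb1, the Hsp40 co-chaperone, read 7.39, 8.12 and 10.07, against 7.71 in control cells. Hspb1, a small heat shock protein, read 4.80 in TGF-beta1, 5.42 in Dll1 and 7.14 in intestinal cells, against 4.55 in control cells, with TGF-beta1 and control BMMCs under the limit. Its second probe set lay between 4.72 and 5.14 on all arrays and did not show that difference, and with the mean of both probe sets Hspb1 fell just short of 2-fold (0.96 on the log2 scale).

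Hspa8 and Hsp90aa1 differed less on the probe sets used. Hspa8 (Hsc70) read 10.56, 10.35 and 11.21 in TGF-beta1, Dll1 and intestinal cells, against 10.35 in control cells, and Hsp90aa1 read 6.88, 6.65 and 7.57, against 6.80 in control cells. Neither reached 2-fold. The other 3 single-gene probe sets of Hspa8 differed more between intestinal and control cells, by 1.23, 1.62 and 1.66, and their mean with the first was 1.34. For Dnaja1 the probe set shared with Mir207 read 6.25, 6.77 and 7.50, against 6.29 in control cells.

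The stretches before Hspa1a and Hspb1 are shown with paired heat shock units in capitals, GAANNTTC or TTCNNGAA, the short repeats of the element that HSF1 binds. They are chr17:34972157-34972306, minus strand (Hspa1a) and chr5:135887769-135887918, plus strand (Hspb1).
Hspa1a: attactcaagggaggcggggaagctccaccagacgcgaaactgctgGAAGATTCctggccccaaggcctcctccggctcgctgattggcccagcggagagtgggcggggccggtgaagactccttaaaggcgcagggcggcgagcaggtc
Hspb1: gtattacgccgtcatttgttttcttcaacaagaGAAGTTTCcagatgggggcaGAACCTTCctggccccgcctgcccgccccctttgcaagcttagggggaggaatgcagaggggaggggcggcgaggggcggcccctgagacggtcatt

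Intestinal mast cells and Dll1 BMMCs were also set against each other directly. Of the 37 genes, 23 were at least 2-fold higher in intestinal cells and none was lower (3.56% of 13028 genes were higher and 4.14% lower), with a median difference of 1.36, and 12 passed 4-fold (0.66% of all). Among the 16 genes called higher than control on both arrays, 8 were also higher in intestinal cells than in Dll1 BMMCs: Fos, Fosb, Jun, Nr4a1, Zfp36, Btg2, Nfkbiz and Tnfaip3. The other 8 were Junb, the 3 Egr genes, Dusp1, Dusp5, Dusp6 and Ier2, whose differences lay between -0.10 and 0.90. Of the 17 genes higher than control in intestinal cells but not in Dll1 BMMCs, 5 were heat shock genes, and Dusp2, Atf3, Rhob, Nfkbia and Nr4a3 were among the others.

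**Figure D3:**
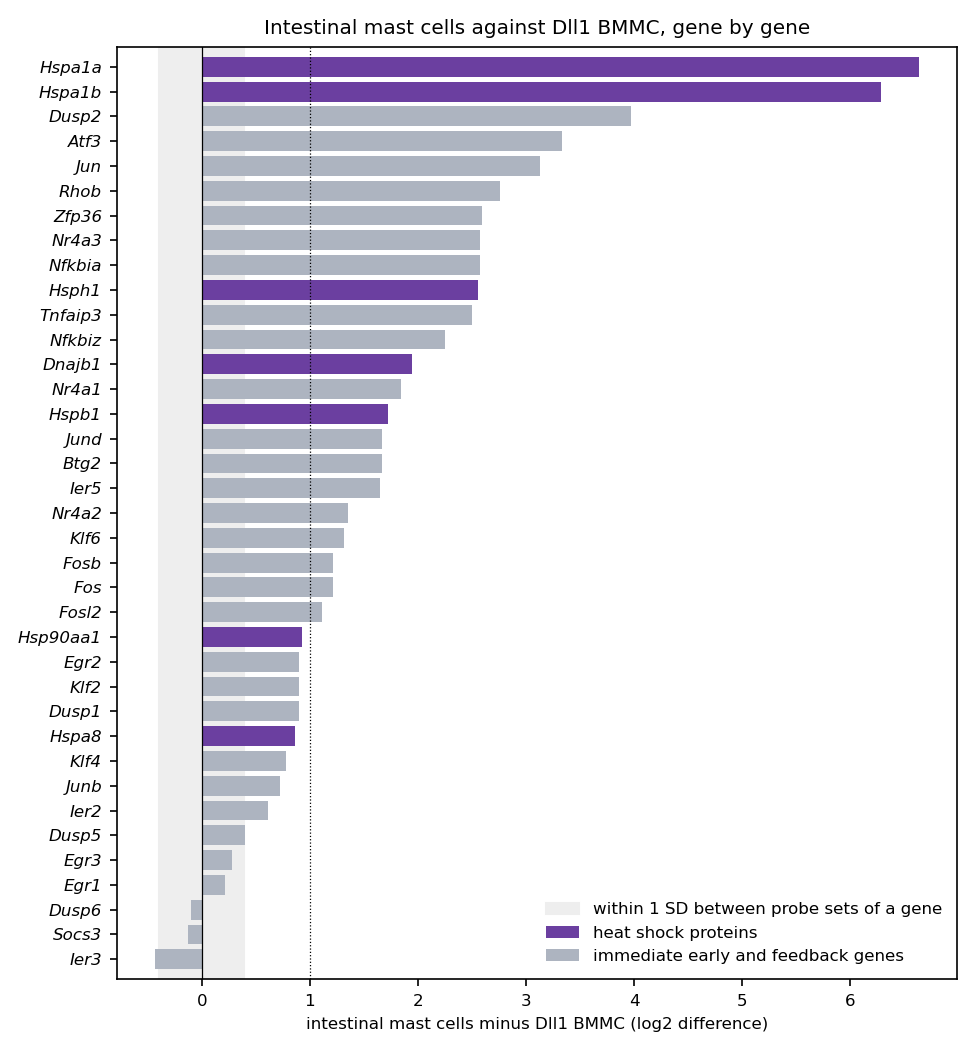
Log2 difference between intestinal mast cells and Dll1 BMMCs for each of the 37 genes (bars, with values under background raised to the limit), ordered by size, with heat shock genes in purple, a dotted line at 2-fold and the range within 1 SD between probe sets of a gene (0.39) shaded. Hspa1a and Hspa1b have the longest bars, which are lower bounds, and Egr1, Egr3, Dusp6 and Socs3 lie within the shaded range.

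Genes of the same pathways that are not in the list were counted too, and were also chosen with earlier results of these data known. Of 48 other early response genes, 2 were at least 2-fold higher in TGF-beta1 BMMCs, 6 in Dll1 BMMCs and 19 in intestinal cells than in control BMMCs, and none was lower in these comparisons. These are 4.17%, 12.5% and 39.6% of the 48, where 0.508%, 1.64% and 4.47% of all genes tested were higher. Csrnp1 read 5.94, 8.80 and 9.52 in TGF-beta1, Dll1 and intestinal cells, against 5.68 in control cells. The activation marker Cd69 read 8.82, 11.29 and 12.28, against 9.22 in control cells, and the kinase Sik1 read 5.20, 6.27 and 8.77, against 5.21 in control cells. Gadd45b was higher in all 3 groups (7.69, 7.54 and 9.46, against 6.35 in control), and with Bcl3 (6.71, 5.86 and 5.88, against 5.70 in control) it made up the 2 genes higher in TGF-beta1 BMMCs, Bcl3 only just (2.02-fold).

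Of 33 other heat shock and co-chaperone genes, 1 was higher in intestinal cells than in control BMMCs and 1 lower, none was higher and 2 were lower in Dll1 BMMCs, and none was called in TGF-beta1 BMMCs. Over all genes tested, 4.47% were higher and 6.74% lower in intestinal cells and 1.64% and 1.78% in Dll1 BMMCs, so the counts in intestinal cells are no more than that background. The higher one was Bag3, a co-chaperone of Hsp70 and target of HSF1, with 6.21, 6.25 and 7.47 in TGF-beta1, Dll1 and intestinal cells, against 5.95 in control cells. Dnaja4 was lower in Dll1 (6.52) and intestinal cells (5.95), with 7.02 in TGF-beta1 and 7.54 in control BMMCs. Hspa4l was the other gene lower in Dll1 BMMCs (6.74, against 7.80 in control).

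Upstream, 36 genes of kinases and transcription factors that act on these promoters were measured, and 1 was called relative to control, Rel, an NF-kB subunit, at 10.89 in intestinal cells against 9.10 in control cells. That is 2.78% of the 36, where 4.47% of all genes tested were higher in intestinal cells, so the count is no more than that background. Srf itself, named after its values were seen, lay between 7.26 and 7.36 on the 4 arrays. Hsf2 was the 1 gene of this set called between Dll1 and TGF-beta1 BMMCs, at 4.84 (under the limit) in Dll1 and 6.22 in TGF-beta1 cells. Of 25 activation cytokines and mediators, 10 were higher and 2 lower in intestinal cells than in control BMMCs, 6 higher in Dll1 BMMCs, and 1 higher and 3 lower in TGF-beta1 BMMCs. The higher ones were 40%, 24% and 4% of the 25, where 4.47%, 1.64% and 0.508% of all genes tested were higher. Over all genes tested 6.74% were lower in intestinal cells and 0.89% in TGF-beta1 BMMCs. Tnf read 6.34, 7.15 and 10.12 in TGF-beta1, Dll1 and intestinal cells, against 6.90 in control cells, and Ptgs2, the inducible cyclooxygenase, was at least 10.1-fold above control in intestinal cells (8.46, against 4.58). Ccl2 went the other way, with a level in intestinal cells 11.1-fold under that in control BMMCs and 14.1-fold under that in Dll1 BMMCs. None of 12 reference genes of steady level was called in any comparison with control, but 1 was higher in intestinal cells with an offset subtracted and 1 with quantile normalization repeated.

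**Figure D4:**
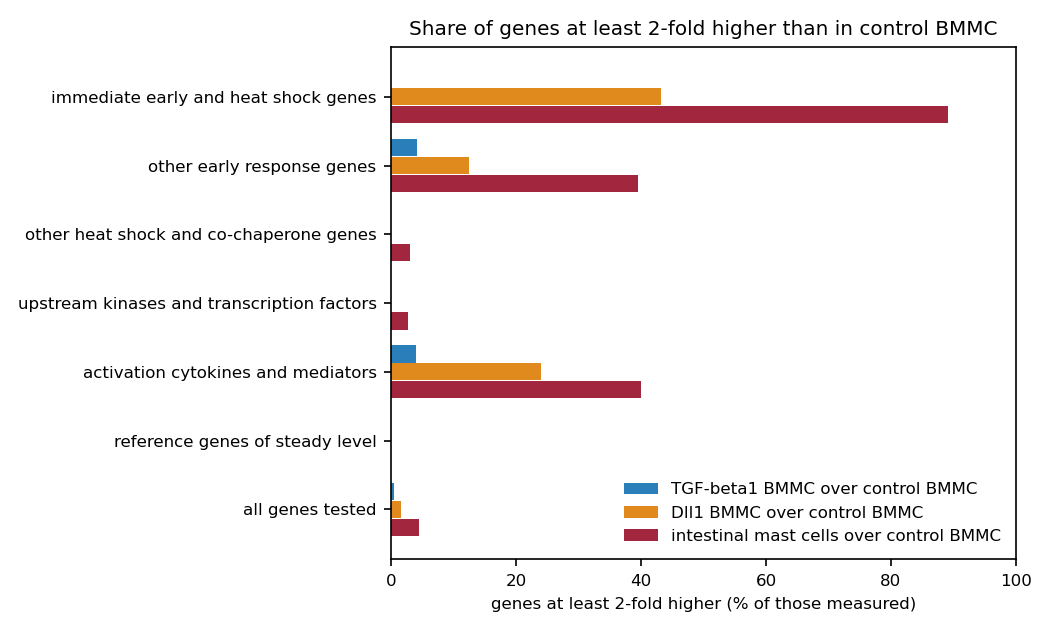
Share of measured genes that were at least 2-fold higher than in control BMMCs (x axis, percent), by gene list (y axis), for TGF-beta1 BMMCs, Dll1 BMMCs and intestinal mast cells, with all genes tested at the bottom. The listed immediate early and heat shock genes reach 43.2% in Dll1 BMMCs and 89.2% in intestinal mast cells, while no reference gene of steady level is called at these settings.

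Across the promoters, RefSeq windows were found for 32 of the 38 listed genes (all but Egr1, Egr3, Ier2, Nfkbiz, Hsp90aa1 and Hspa8), 41 windows in all since some genes have several start sites and such windows can overlap. Motifs were searched on both strands in the 250 bases before each start site. The CRE core TGACGT was in 24.4% of the windows of listed genes and in 6.47% of 32851 mouse windows, and the CArG box was in 14.6% and 1.47%. By gene these were 8 and 3 of the 32 listed genes, and 4 of the 6 windows with a CArG box belong to Egr2. The Egr site GCGNGGGCG was in 31.7% and 4.70%, and the NF-kB site in 22.0% and 7.25%. The heat shock element of 3 units was in 0 of the 41 windows and in 0.466% of all windows. Paired heat shock units, searched after that, were in 22.0% and 12.8%, and among heat shock genes they lay before Hspa1a, Hspa1b, Hspb1, Hsph1 and Dnaja1. The AP-1 site TGANTCA was in 1 of the 41 windows, at Tnfaip3, and in 6.75% of all windows. CArG boxes lay before Egr2, Dusp5 and Zfp36. Matches did not follow the calls in general. Of the genes with a CRE core, Nr4a3 and Atf3 were not called higher in Dll1 BMMCs than in control BMMCs. Nor were Fosl2, Nr4a2, Klf2, Klf4, Dusp2 and Socs3 with an Egr site, or Fosl2, Ier3, Nfkbia, Hspa1a and Hspa1b with an NF-kB site. The other measured genes with these motifs were called higher. These matches describe the letters of the windows and not binding.

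**Figure D5:**
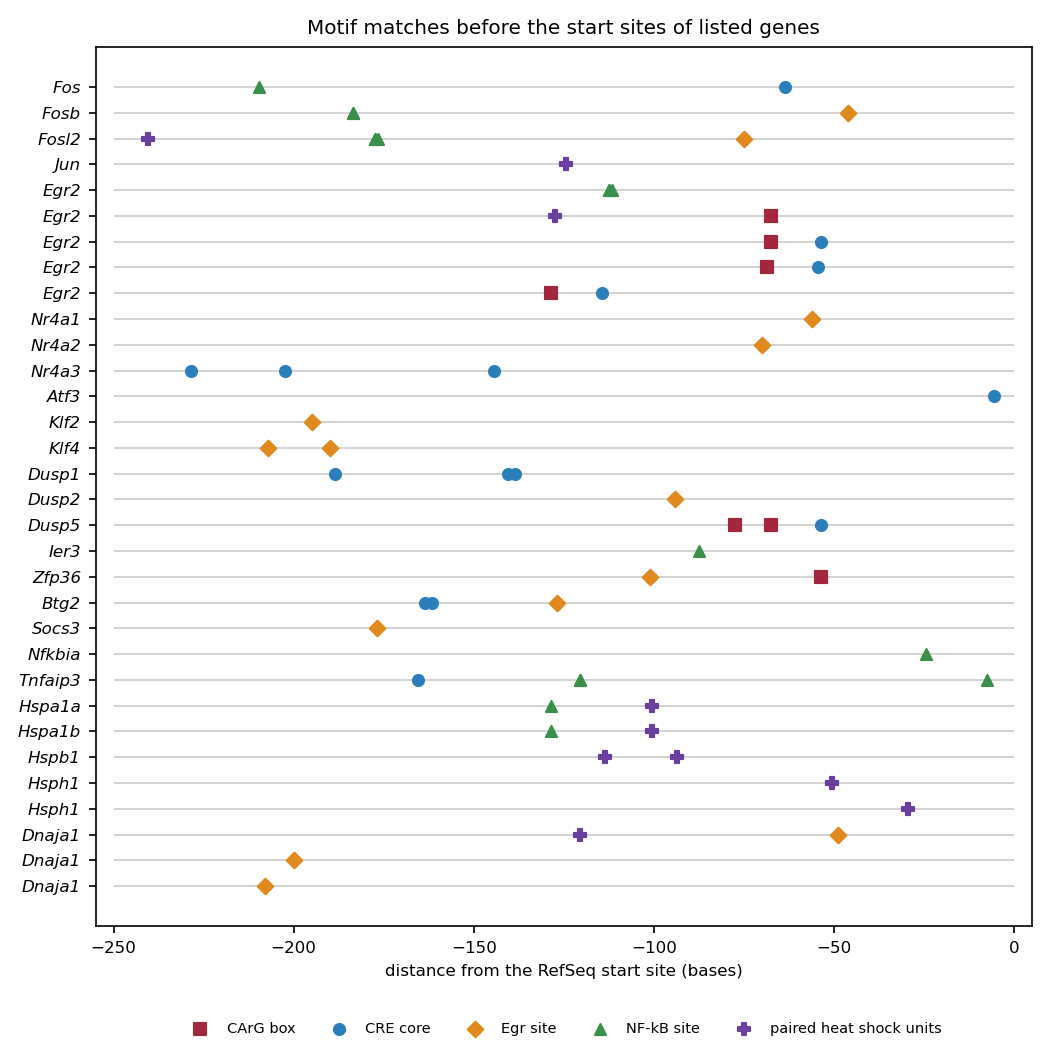
Positions of CArG boxes, CRE cores, Egr sites, NF-kB sites and paired heat shock units (symbols) in the 250 bases before RefSeq start sites (x axis, distance in bases) of listed genes with at least 1 match (y axis, 1 line per start site). CArG boxes fall on Egr2, Dusp5 and Zfp36 lines, and paired heat shock units fall on lines of heat shock genes and of Fosl2, Jun and Egr2.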

How the data were processed

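Per the deposited file, each of 33793 probe sets had 1 log2 value per array, between 4.13 and 13.14. The arrays had nearly the same distribution as deposited (their sorted values differed by 0.055 on average). How the probes were summarised and normalized is not given in the sources used here, and no further normalization was applied. Symbols came from the platform annotation, and of several probe sets of a gene the one with the highest mean was used. Levels are compared within a gene and never between genes. The floor just above 4 compresses differences of dim genes, and an array gives no read depth, so the number of arrays limits the precision. List medians use measured differences of all members, those under background included.

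The listed genes, the companion lists and the marker lists were chosen with earlier results of these data known. Of each companion list, up to 4 genes with the largest called differences per comparison could be named. Of all other genes, 8 with the most similar profile were named. The motifs were chosen after the data were seen, and the shorter CRE core and paired heat shock units after longer forms had been searched. The size rule and the motif search were tested on simulated data. Alternatives were another background limit or none, array medians subtracted, repeated quantile normalization, an offset of 16 subtracted, averaging over the probe sets of each gene, and 4-fold in place of 2-fold. Python 3.11.15, pandas 2.3.3 and numpy 2.4.6 were used.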

Additional observations from a re-analysis of the deposited data

How the results depend on the processing

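No paired analysis was possible because each group had 1 array. At 4-fold in place of 2-fold, 10 listed genes were higher in Dll1 than in control BMMCs and 12 in intestinal cells than in Dll1 BMMCs, in place of 16 and 23. With an offset of 16 subtracted, the list median was 1.24 for Dll1 minus control (0.85 without it) and 3.75 for intestinal minus TGF-beta1 (3.31 without it), and 1 gene, Btg2, was lower in TGF-beta1 BMMCs (-1.20). The same offset called 110 genes higher and 184 lower overall for TGF-beta1 against control (61 and 107 without it), 360 and 393 for Dll1 against control (209 and 227), and 430 and 403 for Dll1 against TGF-beta1 (277 and 240). Over 222 differences of single genes, none changed sign past 2-fold under any of the 6 settings tried, and 0 to 5 per setting crossed the 2-fold line, among them Klf2, Klf4, Hspb1 and Hspa8. With array medians subtracted or quantile normalization repeated, none crossed it, and none moved by as much as the SD between probe sets of a gene. The stricter background limit moved 50 of the 222 by at least that SD, and the offset of 16 moved 60. Without a limit 12 moved, and with probe sets averaged 11 did. The spread used to judge these moves was that between probe sets of a gene, since no group had a replicate.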

Other observations

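Among 11977 genes outside all lists that were above background on at least 1 array, predicted genes and small RNAs left aside, the 8 whose 4 levels, each centred on the gene's mean, lay closest to the median centred profile of the listed genes were Phxr4, Prr5, Pdgfrb, Ube2e2, Ndrg2, Osgin1, Grk3 and AW011738. Their root mean square distances ran from 0.099 to 0.25 on the log2 scale. Pdgfrb, a growth factor receptor of mesenchymal cells, read 5.46 in TGF-beta1, 6.37 in Dll1 and 8.39 in intestinal cells, against 5.62 in control cells. Ndrg2 read 6.15, 7.36 and 9.32, against 6.20 in control cells. Osgin1, a gene of the oxidative stress response, read 6.00, 7.23 and 8.96, against 6.35 in control cells. With 4 arrays such likeness is a description of these values alone.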
